A study of Homo sapiens with 6 samples.

Results

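The extracellular matrix genes described here are 49 genes for collagens, laminins, other matrix glycoproteins and the enzymes that crosslink them, out of 58735 genes in the count table. They were chosen by gene symbol, with earlier results of these data known, and all 49 symbols were found. They were compared between 2 groups of AsPC-1 cells, an established human cell line from a pancreatic cancer. The Vector group (n = 3) carried an empty lentivirus and is given as wild type, and the OE-MMP28 group (n = 3) carried a lentivirus that overexpresses MMP28, a secreted matrix metalloproteinase. Per the study's methods the viruses bear green fluorescent protein and puromycin resistance and the infected cells were selected with puromycin, so each group is a selected pool of infected cells of a single line. The labels do not say that the replicates came from separate cultures, so the p-values below measure only the spread between these libraries, which may be technical.

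Epithelial cells sit on a basement membrane, a sheet in which laminin trimers and a collagen IV network are joined by nidogens. Collagen XVII, a transmembrane collagen, anchors the cell to that sheet through hemidesmosomes, and collagen VII fastens the sheet to the tissue below. Beyond it lie fibrillar collagens, fibronectin and elastic microfibrils, where latent TGF-beta binding proteins hold TGF-beta in an inactive form. Lysyl hydroxylases (PLOD genes) prepare collagen for crosslinking, and the lysyl oxidases (LOX and the LOXL genes) make the crosslinks. Pancreatic tumours are known for a dense matrix, most of which is made by stromal fibroblasts, a cell type that is not part of this culture.

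Read counts totalled 13633249 to 16691458 per library, so a count of 0, which allows up to 3 counts, limits a gene to between 0.180 and 0.220 CPM, counts scaled to the library total, for counting error only. Levels are given below as FPKM, fragments per length of the gene (in kilobases) and per depth of the library, which can be compared between genes. The epithelial markers were detected in every library, with an FPKM sum over 8 genes of 2688 to 3672 in the Vector group and 3636 to 4447 in the OE-MMP28 group. Single epithelial markers went both ways, with MUC1 (2.16) and KRT19 (0.71) higher and CDH1 (-0.59) and CLDN4 (-0.61) lower on the log2 scale at an adjusted p under 0.05. Among 10 fibroblast markers, 6 had no more than 3 counts per library, and the FPKM sum of the list was 35.7 to 42.3 for Vector and 39.8 to 57.7 for OE-MMP28. Most of that sum was LUM, the gene of the proteoglycan lumican, at 33.8 to 40.9 FPKM and 39.2 to 56.9 FPKM (log2 fold change 0.29, adjusted p = 0.208). Without LUM the sum was 1.47 to 1.92 FPKM and 0.645 to 0.842 FPKM, mostly from ACTA2, the smooth muscle actin gene, which was lower (log2 fold change -1.27, adjusted p = 0.00318). Of 8 macrophage markers 7 had under 14 counts in every library, and their sum was 1.06 to 1.21 FPKM and 0.794 to 0.991 FPKM. The part of these marker levels in the results below was not tested, and in bulk RNA fewer cells of a type cannot be told apart from less RNA per cell. Mitochondrial genes took between 11.9% and 14.8% of the Vector counts and between 8.80% and 11.9% of the OE-MMP28 counts.

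MMP28 itself stood at 5.17, 9.11 and 8.43 FPKM in the Vector libraries and at 13.1, 13.9 and 15.1 FPKM in the OE-MMP28 libraries. It was higher in all 3 OE-MMP28 libraries than in any Vector library, with a log2 fold change of 0.90 ± 0.19 (SE; adjusted p = 0.00226 by edgeR's quasi-likelihood test). An exact two-sided permutation test of the FPKM values gave p = 0.1, the smallest that 3 libraries against 3 allow.

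The 5 promoters below belong to the matrix genes with the largest fold changes, leaving out FBLN1, which had at most 25 reads in any library. The capitals mark matches to 5 motifs searched on both strands: the GC box (GGGCGG), the cyclic AMP response element or CRE (TGACGTCA), the AP-1 motif (TGACTCA), the TATA motif (TATAAA) and an E-box (CACCTG), none of which overlaps another in these stretches. Each is 100 bases of RefSeq sequence on build GRCh38.p14, on the gene's own strand. For TNC, LTBP2, LOXL4 and LAMB1 it ends just before the gene's start in GENCODE, which lies upstream of the RefSeq start. For LTBP1 it ends just before a RefSeq start, of which this gene has 3. Which of these starts the cells used was not tested. The stretch of TNC lies at chr9:115118258-115118357 on the minus strand, that of LTBP2 at chr14:74612379-74612478 on the minus strand, that of LOXL4 at chr10:98268251-98268350 on the minus strand, that of LTBP1 at chr2:32946853-32946952 on the plus strand and that of LAMB1 at chr7:108003256-108003355 on the minus strand. TNC and LTBP2 are genes that rose in the OE-MMP28 group, and LOXL4, LTBP1 and LAMB1 are genes that fell.
TNC: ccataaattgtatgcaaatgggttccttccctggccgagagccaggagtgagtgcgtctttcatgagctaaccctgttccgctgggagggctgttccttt
LTBP2: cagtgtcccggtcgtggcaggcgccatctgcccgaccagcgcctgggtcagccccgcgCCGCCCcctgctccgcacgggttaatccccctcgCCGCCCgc
LOXL4: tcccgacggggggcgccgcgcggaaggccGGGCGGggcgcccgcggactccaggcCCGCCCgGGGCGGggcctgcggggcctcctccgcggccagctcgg
LTBP1: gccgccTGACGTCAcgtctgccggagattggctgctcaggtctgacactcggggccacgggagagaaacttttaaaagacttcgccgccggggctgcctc
LAMB1: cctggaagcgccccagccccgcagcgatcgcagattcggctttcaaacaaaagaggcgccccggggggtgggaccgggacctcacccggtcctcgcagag

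LOXL4 held 3 GC boxes and 88% G and C, LTBP2 held 2 GC boxes and 77%, LTBP1 held 1 CRE and 63%, and TNC with 53% and LAMB1 with 69% held no match to the 5 motifs in these letters. Across 35116 RefSeq promoters, with a median of 60% G and C, the 100 bases before the RefSeq start, which is another window than that of 4 of these 5 genes, held a GC box in 31.3%, a CRE in 1.17%, the AP-1 motif in 1.94%, TATAAA in 4.99% and the E-box in 6.78%. For the matrix genes, 42 of 49 had at least 1 promoter in the table, and of their 54 promoters 29 held a GC box, 1 the CRE, 3 the AP-1 motif, 2 TATAAA and 3 the E-box. Such matches describe the letters only.

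Of the 49 matrix genes, 35 had enough reads to be tested, 4 were higher and 9 were lower in the OE-MMP28 group at an adjusted p under 0.05. TNC, LTBP2, TGFBI and NID1 rose, and LOXL4, FBLN1, LTBP1, LAMB1, COL5A2, EFEMP2, COL6A1, THBS1 and LTBP3 fell. The genes that rose were 11.4% of the 35, beside 11.7% of all 15319 genes tested, and the genes that fell were 25.7%, beside 11.6% of all genes. Together 37.1% changed, beside 23.4% of all genes. For 15 of the 35 (42.9%) the FPKM ranges of the groups did not overlap, beside 38.1% of all genes tested. The median log2 fold change was -0.09 over the 35 and 0.01 over all genes tested. Of the 35, 29 passed the filter on low counts in both groups and 4 passed only through the group where they were higher, so these counts describe the genes that could be tested and not all 49. Because the genes were chosen with earlier results of these data known, the shares beside those of all genes are descriptions and not a test of the list.

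**Figure D1:**
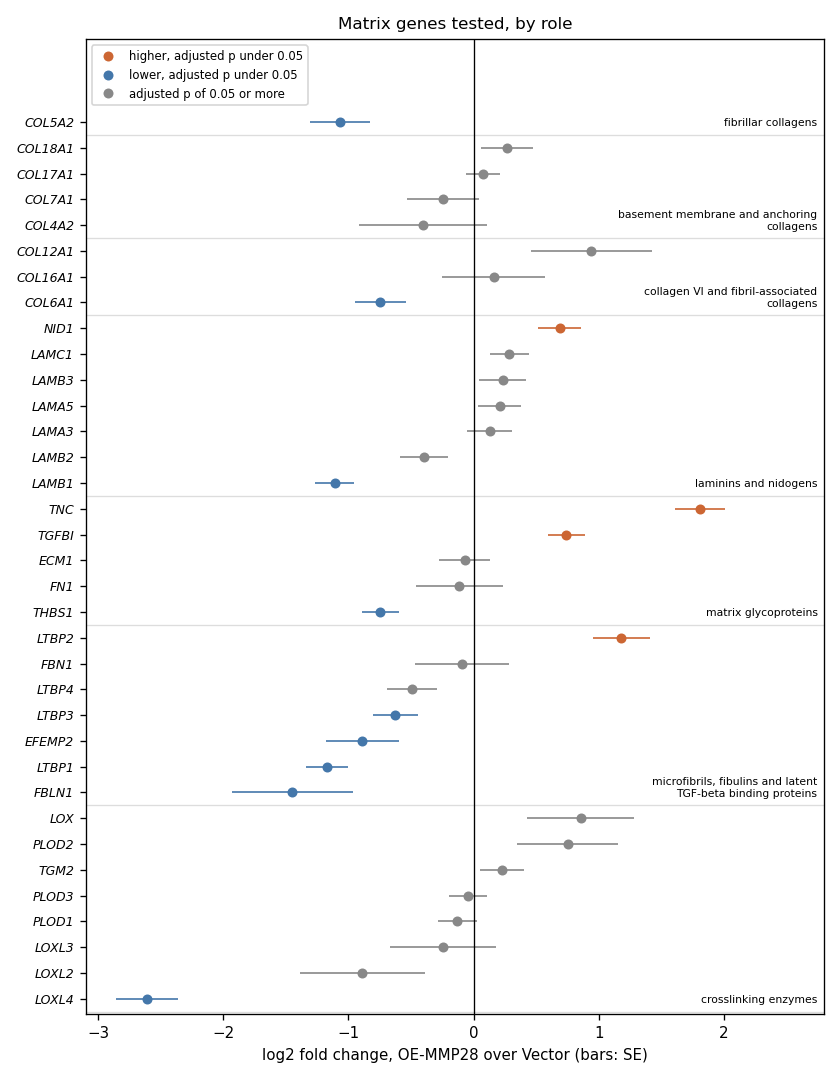
Log2 fold change of the 35 tested matrix genes in OE-MMP28 over Vector cells (horizontal axis; points are estimates and bars are SE, 3 libraries a group), arranged by role. LOXL4 at -2.61 and TNC at 1.81 lie farthest from 0, and most laminins, basement membrane collagens and PLOD enzymes lie near it.

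The other 14 genes were at or close to the limit of detection. COL6A2 and SPARC had no read in any library, and COL5A1, COL4A1, COL4A5, COL4A6, SPP1, BGN and EFEMP1 had at most 3. COL6A3, LOXL1, MATN2, COL1A1 and NID2 reached 5, 4, 10, 11 and 11 reads in their highest library. These include the genes of the fibrillar collagen I chain COL1A1, the matricellular protein SPARC, the phosphoprotein osteopontin (SPP1) and the proteoglycan biglycan (BGN). At this depth a difference between the groups was not detectable for them.

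Collagen RNA in these cells was almost wholly COL17A1. COL17A1, the chain of the hemidesmosomal collagen XVII, stood at 173, 179 and 165 FPKM in the Vector libraries and at 175, 191 and 175 FPKM in the OE-MMP28 libraries. Of the FPKM sum of the 15 collagen genes it took 93.3% ± 1.39 in Vector cells and 95.2% ± 0.777 in OE-MMP28 cells (SD, n = 3 each, exact permutation test, two-sided, p = 0.1). The shares did not overlap between the groups, whereas the FPKM values of COL17A1 did. Its log2 fold change of 0.08 ± 0.14 (SE) had a 95% interval of -0.21 to 0.36 and did not pass the threshold. The FPKM sum of these collagens without COL17A1 was 12.4 ± 3.24 in Vector cells and 9.09 ± 1.74 in OE-MMP28 cells (SD, n = 3 each). COL6A1, the next by level, already differed without overlap in the same libraries, so the share is not separate evidence of a change in COL17A1. The median log2 fold change of the genes within 5 Mb of COL17A1 was -0.45, and relative to it COL17A1 was higher at 0.53 (adjusted p = 0.0127, against 0.0127 to 0.964 over all 18 alternatives). Among these 15 collagen genes, the next by mean FPKM in the Vector group were COL6A1 at 8.08, COL18A1 at 2.63, COL5A2 at 0.991 and COL7A1 at 0.443.

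COL5A2 and COL6A1 were the 2 collagens that fell. COL5A2, a chain of the fibril-regulating collagen V, stood at 0.886, 1.11 and 0.974 FPKM in the Vector libraries and at 0.475, 0.474 and 0.455 FPKM in the OE-MMP28 libraries. All 3 OE-MMP28 libraries lay close together and below the Vector libraries, with a log2 fold change of -1.07 ± 0.24 (SE, adjusted p = 0.00302). COL5A1, the chain that collagen V trimers need, had at most 2 reads in any library. For COL6A1, a chain of the beaded-filament collagen VI, FPKM was 6.55, 11.1 and 6.63 in the Vector libraries and 3.80, 5.42 and 5.09 in the OE-MMP28 libraries. Vector replicate 2 was the highest and the groups did not overlap, with a log2 fold change of -0.74 ± 0.21 (SE, adjusted p = 0.0125). The call for COL6A1 was lost without Vector replicate 2 (log2 fold change -0.45) and without OE-MMP28 replicate 1 (-0.62). Its partner chains were at 0 (COL6A2) and at most 5 reads (COL6A3), although COL6A2 lies 93.0 kb from COL6A1 on chromosome 21.

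None of the 4 tested collagens of the basement membrane and its anchors passed the threshold. COL18A1, the source of endostatin, ran from 2.16 to 3.08 FPKM in the Vector group and from 2.15 to 3.69 FPKM in the OE-MMP28 group, with a log2 fold change of 0.27 (95% interval -0.16 to 0.70). SLC19A1 on the opposite strand covers 16.4% of the COL18A1 exon length and reached 613 reads, so a share of the COL18A1 reads could be its own unless the counting used strand. COL7A1, the anchoring fibril collagen, differed by -0.25 on the log2 scale (95% interval -0.85 to 0.36). COL4A2 had 8, 23 and 8 reads in the Vector libraries and 10, 12 and 11 in the OE-MMP28 libraries, which overlap. COL4A1, which pairs with COL4A2 in the main collagen IV trimer and starts beside it on the opposite strand of chromosome 13, had at most 1 read. COL12A1 and COL16A1, which associate with fibrils, had log2 fold changes of 0.94 ± 0.48 (SE, adjusted p = 0.168) and 0.16 ± 0.41 (SE, adjusted p = 0.821).

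Among the laminins, LAMB1 fell while the chains it assembles with did not pass the threshold. LAMB1, the beta1 chain, stood at 20.8, 29.1 and 21.3 FPKM in the Vector libraries and at 11.4, 10.3 and 11.0 FPKM in the OE-MMP28 libraries. The OE-MMP28 libraries were all below the lowest Vector library, with a log2 fold change of -1.11 ± 0.16 (SE, adjusted p = 4.96e-05). LAMB1 (chromosome 7, 107923799 to 108003255, minus strand) lay next to neighbours with a median log2 fold change of -0.23, and over the 18 alternatives its log2 fold change ran from -1.20 to -0.88.

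LAMA5 and LAMC1, the alpha5 and gamma1 chains that form a trimer with LAMB1, differed by 0.21 (95% interval -0.16 to 0.57) and 0.28 (95% interval -0.04 to 0.61) on the log2 scale. LAMB2, the beta2 chain that can take the place of beta1 in that trimer, ran from 13.2 to 23.0 FPKM in the Vector group and from 10.8 to 15.3 FPKM in the OE-MMP28 group, with a log2 fold change of -0.40 ± 0.19 (SE, adjusted p = 0.137). The FPKM ratio of LAMB1 to LAMB2 was 1.34 ± 0.215 in Vector cells and 0.824 ± 0.204 in OE-MMP28 cells (SD, n = 3 each). LAMB1 over LAMC1 was 1.40 ± 0.286 (SD, n = 3) and 0.541 ± 0.113 (SD, n = 3). Neither ratio overlapped between the groups. The exact two-sided permutation p was 0.1 for each, the smallest possible, and also 0.1 after adjustment over the 5 ratios and shares compared. LAMB1 itself already differed without overlap in the same libraries, so these ratios are not separate evidence.

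LAMA3 and LAMB3 encode chains of the laminin of hemidesmosomes. LAMB3 had the highest level of the laminin chains, at 69.7, 43.9 and 38.3 FPKM in the Vector libraries and 53.7, 67.0 and 56.2 FPKM in the OE-MMP28 libraries. LAMA3 stood at 17.1, 10.2 and 10.5 FPKM and at 14.7, 14.8 and 11.6 FPKM. For both chains Vector replicate 1 was the highest Vector library and the groups overlapped. The log2 fold changes were 0.23 for LAMB3 and 0.13 for LAMA3, with adjusted p of 0.396 and 0.654. Leaving out Vector replicate 1 brought LAMB3 (0.53) and LAMB2 (-0.58) past the threshold.

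NID1, the nidogen that joins laminin to collagen IV, rose. Its level was 4.92, 3.89 and 3.43 FPKM in the Vector libraries and 6.75, 7.07 and 5.76 FPKM in the OE-MMP28 libraries. Every OE-MMP28 library lay above every Vector library, with a log2 fold change of 0.69 ± 0.17 (SE, adjusted p = 0.00701). The call was lost without Vector replicate 3 (0.58) and without OE-MMP28 replicate 2 (0.61). NID2 had at most 11 reads in any library and was not tested, and RTRAF on the opposite strand covers 30.0% of its exon length.

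TNC had the largest rise of the matrix genes. TNC encodes tenascin-C, a large glycoprotein that is abundant in wounds and tumour stroma, and stood at 2.36, 1.31 and 1.34 FPKM in the Vector libraries and at 6.04, 5.90 and 5.55 FPKM in the OE-MMP28 libraries. The OE-MMP28 libraries lay close together and all above Vector replicate 1, the highest of its group. The log2 fold change was 1.81 ± 0.20 (SE, adjusted p = 3.14e-06), or 3.51-fold, and ran from 1.38 to 2.15 over the 18 alternatives, in all of which TNC passed the threshold. The gene lies on chromosome 9 from 115019578 to 115118257 on the minus strand, and its neighbours within 5 Mb had a median log2 fold change of 0.13.

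TGFBI and THBS1 moved in opposite directions. TGFBI, a TGF-beta-induced protein that binds collagen and integrins, was the matrix glycoprotein with the highest level, at 30.2, 28.9 and 36.6 FPKM in the Vector libraries and 54.7, 51.0 and 53.2 FPKM in the OE-MMP28 libraries. It rose without overlap between the groups, by 0.74 ± 0.14 on the log2 scale (SE, adjusted p = 0.00107). THBS1, encoding thrombospondin-1, which can activate latent TGF-beta, stood at 13.1, 13.0 and 12.7 FPKM in the Vector libraries and at 8.24, 8.09 and 6.68 FPKM in the OE-MMP28 libraries. The 3 Vector libraries were close together and all above the OE-MMP28 libraries, with a log2 fold change of -0.74 ± 0.15 (SE, adjusted p = 0.0012). Both genes passed the threshold in all 18 alternatives.

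FN1 and ECM1 did not pass the threshold. FN1, the gene of fibronectin, was low at 0.106 to 0.222 FPKM in the Vector group and 0.117 to 0.172 FPKM in the OE-MMP28 group, with a log2 fold change of -0.11 (95% interval -0.83 to 0.61). ECM1, a secreted glycoprotein, ran from 2.77 to 3.72 FPKM and from 2.55 to 3.27 FPKM, with a log2 fold change of -0.07 (95% interval -0.50 to 0.36).

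**Figure D2:**
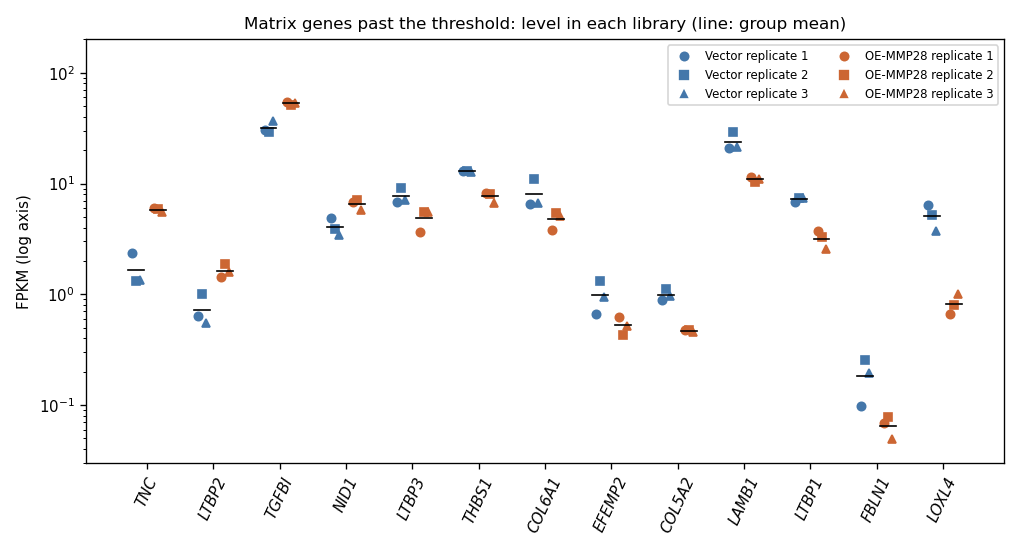
FPKM of the 13 matrix genes past the threshold in each library (vertical log axis; symbols give the replicate, colours the group and lines the group mean), from the largest rise on the left to the largest fall on the right. For each of the 13 genes the Vector and OE-MMP28 libraries do not overlap. On this log axis the narrowest gap between the groups is that of EFEMP2, from 0.667 to 0.621 FPKM.

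The latent TGF-beta binding proteins split, with LTBP2 higher and LTBP1 and LTBP3 lower. LTBP1, which binds latent TGF-beta and tethers it to the matrix, stood at 6.85, 7.34 and 7.44 FPKM in the Vector libraries and at 3.70, 3.29 and 2.55 FPKM in the OE-MMP28 libraries. All 3 OE-MMP28 libraries were far below the Vector range, with a log2 fold change of -1.17 ± 0.17 (SE, adjusted p = 5.35e-05). Its neighbours within 5 Mb on chromosome 2 had a median of -0.50, and relative to that median the log2 fold change of LTBP1 was -0.67, still past the threshold.

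LTBP2, the member of the family that does not bind latent TGF-beta, was low at 0.633, 1.00 and 0.552 FPKM in the Vector libraries and stood at 1.45, 1.87 and 1.60 FPKM in the OE-MMP28 libraries. It rose without overlap, with a log2 fold change of 1.18 ± 0.23 (SE, adjusted p = 0.00104). The genes within 5 Mb of LTBP2 on chromosome 14 had a median of 0.58, and relative to that median LTBP2 differed by 0.60 and no longer passed the threshold.

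LTBP3, which also carries latent TGF-beta, stood at 6.79, 9.10 and 7.03 FPKM in the Vector libraries and at 3.68, 5.56 and 5.49 FPKM in the OE-MMP28 libraries. The groups did not overlap, and the log2 fold change was -0.62 ± 0.18 (SE, adjusted p = 0.0167). The call was lost without Vector replicate 2 (-0.48) and without OE-MMP28 replicate 1 (-0.47). LTBP4, at 4.68 to 6.42 FPKM in the Vector group and 2.84 to 4.82 FPKM in the OE-MMP28 group, overlapped and did not pass (log2 fold change -0.49 ± 0.20, SE, adjusted p = 0.0748), although it did without Vector replicate 1 (-0.62).

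The FPKM sum of the 4 LTBP genes was 21.3 ± 2.46 in Vector cells and 13.8 ± 1.85 in OE-MMP28 cells (SD, n = 3 each). LTBP2 made up 3.38% ± 0.794 of it in Vector cells and 11.9% ± 0.761 in OE-MMP28 cells (SD, n = 3 each). The ratio of LTBP1 to LTBP2 was 10.5 ± 3.08 (SD, n = 3) and 1.97 ± 0.513 (SD, n = 3), with no overlap (exact permutation test, two-sided, p = 0.1). Both genes already differed without overlap in opposite directions, so the outcome of this test was set by their levels.

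EFEMP2 and FBLN1, 2 fibulins of elastic fibres and basement membranes, fell on few reads. EFEMP2, which helps to deliver lysyl oxidase to elastic fibres, stood at 0.667, 1.32 and 0.955 FPKM in the Vector libraries and at 0.621, 0.432 and 0.518 FPKM in the OE-MMP28 libraries. The lowest Vector library and the highest OE-MMP28 library almost met, and the log2 fold change was -0.89 ± 0.29 (SE, adjusted p = 0.0335). FBLN1 had 11, 25 and 21 reads in the Vector libraries and 8, 9 and 6 reads in the OE-MMP28 libraries. It passed the filter only through the Vector group, where it was higher, with a log2 fold change of -1.45 ± 0.48 (SE, adjusted p = 0.0344). The EFEMP2 call was lost without Vector replicate 2 (-0.62) or 3 (-0.90) and without OE-MMP28 replicate 2 (-0.79) or 3 (-0.88). The FBLN1 call was lost without Vector replicate 2 (-1.15) or 3 (-1.39) and without OE-MMP28 replicate 1 (-1.51), 2 (-1.61) or 3 (-1.28). FBN1, encoding the microfibril protein fibrillin-1, was at or below 0.152 FPKM in every library, with a log2 fold change of -0.09 ± 0.38 (SE, adjusted p = 0.892).

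LOXL4 had the largest fall of the matrix genes and had the highest FPKM of the lysyl oxidases in every library. It stood at 6.34, 5.23 and 3.70 FPKM in the Vector libraries and at 0.658, 0.794 and 1.01 FPKM in the OE-MMP28 libraries. The highest OE-MMP28 library was well below the lowest Vector library, with a log2 fold change of -2.61 ± 0.25 (SE, adjusted p = 3.42e-07), or 6.12-fold lower. LOXL4 (chromosome 10, 98247690 to 98268250, minus strand) passed the threshold in all 18 alternatives, over which its log2 fold change ran from -2.80 to -1.72, the latter on the log2(FPKM + 1) scale. Its neighbours within 5 Mb had a median of -0.48, and relative to that median LOXL4 differed by -2.13.

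The other lysyl oxidases were low in both groups and none passed the threshold. LOX itself had 12, 8 and 11 reads in the Vector libraries and 20, 26 and 16 reads in the OE-MMP28 libraries, which did not overlap (log2 fold change 0.86 ± 0.43, SE, adjusted p = 0.157). LOXL2 had 18, 17 and 14 reads and 4, 17 and 8 reads (-0.89 ± 0.50, SE, adjusted p = 0.21). LOX passed the filter on low counts only through the OE-MMP28 group and LOXL2 only through the Vector group, in each case the group where it was higher. For LOXL3 the log2 fold change was -0.24 ± 0.42 (SE, adjusted p = 0.722), and HTRA2 on the opposite strand covers 14.3% of its exon length. LOXL1 had at most 4 reads. The FPKM sum of the family was 5.74 ± 1.39 in Vector cells and 1.43 ± 0.0877 in OE-MMP28 cells (SD, n = 3 each). The share of LOXL4 in it was 88.3% ± 2.37 (SD, n = 3) and 57.2% ± 9.44 (SD, n = 3), with no overlap (exact permutation test, two-sided, p = 0.1). LOXL4 itself already differed without overlap in the same libraries, so this share is not separate evidence.

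**Figure D3:**
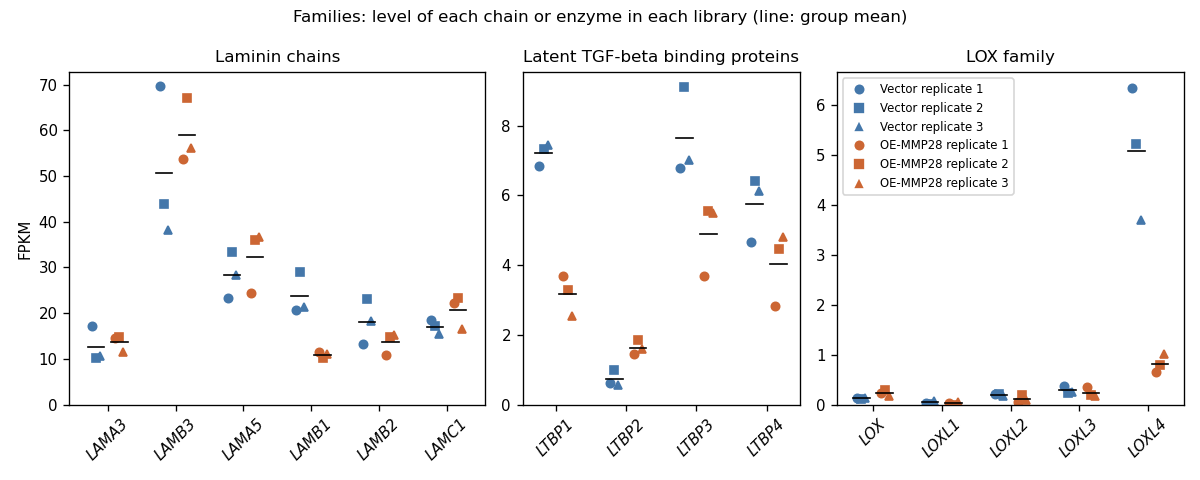
FPKM in each library (vertical axis, linear from 0; symbols give the replicate, colours the group and lines the group mean) of the laminin chains, the LTBP family and the LOX family. LAMB1, LTBP1, LTBP3 and LOXL4 stand lower in the OE-MMP28 libraries and LTBP2 higher. LOX, on few reads and not past the threshold, is also higher without overlap. LAMA3, LAMB3, LAMA5, LAMB2, LAMC1, LTBP4, LOXL1, LOXL2 and LOXL3 overlap between the groups.

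The lysyl hydroxylases and transglutaminase 2 did not pass the threshold. The PLOD sum was 46.6 ± 1.78 FPKM in Vector cells and 44.0 ± 5.56 FPKM in OE-MMP28 cells (SD, n = 3 each). PLOD3 and PLOD1 made up most of it, with log2 fold changes of -0.05 (95% interval -0.36 to 0.27) and -0.13 (95% interval -0.45 to 0.19). PLOD2, the hydroxylase of the collagen telopeptides, had 8, 22 and 22 reads in the Vector libraries and 32, 34 and 32 reads in the OE-MMP28 libraries, with a log2 fold change of 0.75 ± 0.40 (SE, adjusted p = 0.188). PLOD2 passed the filter on low counts only through the OE-MMP28 group, where it was higher. TGM2, which crosslinks matrix proteins through glutamine, ran from 29.5 to 50.5 FPKM in the Vector group and from 41.9 to 44.0 FPKM in the OE-MMP28 group (log2 fold change 0.22, 95% interval -0.14 to 0.59). Without Vector replicate 2, its highest library, TGM2 passed the threshold at 0.51.

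Other matrix genes were taken from 4 lists that hold none of the 49, with 99 genes in all. These lists too were chosen with earlier results of these data known, so their shares are descriptions only. Of the 99 genes, 52 were tested, 13 rose (25.0%, beside 11.7% of all genes tested) and 10 fell (19.2%, beside 11.6%). The genes for folding, modifying and trimming collagen numbered 25, with 18 tested, 3 higher (16.7%) and 4 lower (22.2%), beside 11.7% and 11.6% of all genes tested. P4HA1 (-0.94) and P4HA2 (-0.69), the catalytic subunits of prolyl 4-hydroxylase, which stabilises the collagen triple helix, fell, as did the propeptide protease BMP1 (-0.56) and its enhancer PCOLCE (-1.07). ADAMTS14, a procollagen N-propeptidase that passed the filter on low counts only through the OE-MMP28 group, where it was higher, rose by 2.50, PCOLCE2 by 0.86 and MIA2, which takes part in collagen export, by 0.82. Relative to its neighbours within 5 Mb, P4HA1 (-0.53), BMP1 (-0.19), MIA2 (0.29) and PCOLCE2 (0.16) no longer passed the threshold. The PCOLCE call was lost without Vector replicate 2 (-0.75) and without OE-MMP28 replicate 1 (-0.85) or 3 (-0.96), and the BMP1 call without Vector replicate 3 (-0.57) and without OE-MMP28 replicate 1 (-0.46) or 2 (-0.55).

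Of 29 other collagens only 4 could be tested, of which 1 rose and 2 fell, too few to set beside the 11.7% and 11.6% of all genes. COL13A1, a transmembrane collagen, stood at 0.233, 0.214 and 0.184 FPKM in the Vector libraries and at 0.945, 1.34 and 1.42 FPKM in the OE-MMP28 libraries (log2 fold change 2.56, adjusted p = 4.91e-06). COL27A1, a fibrillar collagen, had 53, 45 and 50 reads in the Vector libraries and 0, 5 and 5 reads in the OE-MMP28 libraries (log2 fold change -3.98, adjusted p = 1.89e-05), having passed the filter only through the Vector group. COL28A1 fell by 1.23 on the log2 scale on low levels, a call that was lost without Vector replicate 2 (-0.73) and without OE-MMP28 replicate 1 (-1.29), 2 (-1.23) or 3 (-1.20).

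Of 29 other genes of basement membranes and elastic matrix, 15 were tested, 4 rose (26.7%, beside 11.7% of all genes) and 3 fell (20%, beside 11.6%). HSPG2 (0.73) and AGRN (0.68), the genes of the basement membrane proteoglycans perlecan and agrin, FRAS1 (1.49) and TINAG (2.33) rose, TINAG having passed the filter only through the OE-MMP28 group. MFAP2, a microfibril protein, fell from 2.06, 3.66 and 2.19 FPKM to 0.195, 0.152 and 0.347 FPKM (log2 fold change -3.47, adjusted p = 1.15e-06). MATN3 (-2.23), a matrilin, and NTN4 (-1.65), a netrin that binds laminin, also fell. MFAP2 and MATN3 passed the filter only through the Vector group, where they were higher. HSPG2 lost its call without OE-MMP28 replicate 2 (0.42), and AGRN without Vector replicate 3 (0.57) and without OE-MMP28 replicate 2 (0.44) or 3 (0.68).

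Of 16 matrix receptors 15 were tested, 5 rose (33.3%, beside 11.7% of all genes) and 1 fell (6.67%, beside 11.6%). ITGA1, the alpha subunit of a collagen-binding integrin, rose by 3.11 on the log2 scale from a low level of 0.0359 to 0.0669 FPKM to 0.384 to 0.569 FPKM. CD44 (0.78), a hyaluronan receptor, ITGA3 (0.58), the alpha subunit of a laminin-binding integrin, DAG1 (0.45), the laminin receptor dystroglycan, and ITGB5 (0.44) also rose. ITGB6 (-0.72), the beta subunit of an integrin that can activate latent TGF-beta, fell. ITGB5 and ITGB6 no longer passed relative to their neighbours (0.09 and -0.25), and neither did DAG1 (0.38). Leaving out 1 library ended the call for ITGA3 (Vector replicate 3 or OE-MMP28 replicate 2, both 0.52), for ITGB5 (4 of the 6 libraries, 0.39 to 0.44) and for DAG1 (4 of the 6 libraries, 0.36 to 0.44).

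For 6 of the 13 matrix genes, LAMB1, TNC, THBS1, TGFBI, LTBP1 and LOXL4, the call held in all 18 alternative analyses. With limma on log2(FPKM + 0.1), COL5A2 (-0.94), COL6A1 (-0.72), LTBP3 (-0.64) and EFEMP2 (-0.76) kept their direction and did not pass. FBLN1 did not pass with DESeq2 (-1.49) or limma voom (-1.33), and EFEMP2 did not pass with limma voom (-0.83). With limma on log2(FPKM + 1) over all genes with any read, LTBP2 (0.61) and NID1 (0.57) did not pass either.

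**Figure D4:**
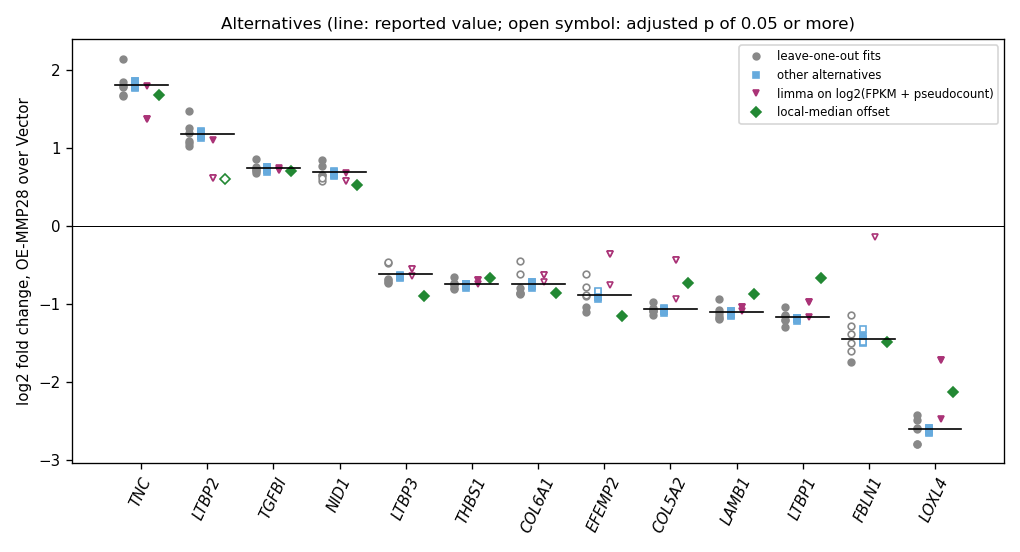
Log2 fold change of the 13 matrix genes past the threshold under 18 alternative analyses (vertical axis; lines are the reported values, filled symbols passed an adjusted p of 0.05 and open symbols did not). TNC, TGFBI, THBS1, LAMB1, LTBP1 and LOXL4 have filled symbols throughout, and no gene crosses 0.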

How the data were processed

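RNA of 6 AsPC-1 libraries was sequenced. The authors' deposited table holds a whole-number read count per gene and library, neither normalized nor pooled, and FPKM values, which the authors made from the count, a gene length and 1 factor per library. HISAT2 2.0.5 and featureCounts 1.5.0-p3 are named in the submitters' processing notes, without their roles. Strand use and the handling of reads that match several places are not given in the sources used here, so overlapping genes can share reads. Identifiers and coordinates were the same as in GENCODE release 29 on GRCh38 for 58724 of 58735 genes. The table's columns of the authors' own comparison (fold changes and p-values) were not used, and 0 per-sample columns were unmapped.

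Groups and replicate numbers came from the labels. Counts were tested with edgeR 4.0.16 in R 4.3.3 (quasi-likelihood, TMM scaling, filterByExpr with a minimum count of 10 and total of 15), which left 15319 genes, over which p-values were adjusted (Benjamini-Hochberg). The study's methods name limma, and limma 3.58.1 was run as an alternative, since whole counts were deposited. Fold changes of FPKM fits are on the log2(FPKM + pseudocount) scale, with pseudocounts of 1 and 0.1. The test was tested on simulated counts of 15011 genes, where it recovered 76.6% of 94 genes changed 2-fold (1 on the log2 scale) and 94.8% of 96 genes changed by 2 on the log2 scale. Of all genes it called there, 5.23% were genes that had not been changed. Far fewer genes were changed there than the 23.4% of tested genes called here, so these rates may not hold for these data.

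The alternatives were leaving out each library, the replicate number as a block, RLE and upper-quartile scaling, no filter, a filter of 1 CPM in 3 libraries, limma voom, DESeq2 1.42.0, the FPKM fits with a mean of at least 0.5 FPKM or no filter, counts without mitochondrial genes, and a local-median offset, which subtracts the median log2 fold change of at least 10 genes within 5 Mb. Matrix genes were given singly with each library's value at an adjusted p under 0.05 and a change of at least 1.5-fold, the other matrix genes with their chain partners or family, and genes of the 4 further lists at an adjusted p under 0.05. The matrix genes and all lists were chosen with earlier results of these data known. Ratios were compared by two-sided exact permutation tests. Libraries of a group differed by more than sampling noise (chi-square per degree of freedom 15.6 to 31.5), so no pair was treated as 1 library deposited again. Whether they came from separate cultures was not tested.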

Additional observations from a re-analysis of the deposited data

How the results depend on the processing

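All 13 matrix genes past the threshold kept their direction in each alternative that tested them, and 6 of them (LAMB1, TNC, THBS1, TGFBI, LTBP1 and LOXL4) passed in all 18. Without 1 library the matrix genes that rose numbered 3 to 5 and those that fell 5 to 11, the lowest without Vector replicate 2 (COL6A1, EFEMP2, FBLN1 and LTBP3 lost). All genes that rose numbered 985 to 1916 and those that fell 1044 to 1949, lowest without OE-MMP28 replicate 2 (1795 and 1784 with all libraries), and genes of the further lists 16 to 26. With limma on log2(FPKM + 1) the matrix genes that fell numbered 4, the genes of the further lists 12 (23 in edgeR), and all genes 1009 higher and 965 lower. A pseudocount of 0.1 gave 4, 13, 1000 and 970. Without a filter, limma on log2(FPKM + 1) called 2 matrix genes higher and 4 lower, 8 genes of the further lists, 362 genes higher and 308 lower, and MMP28, at 0.84, no longer passed (adjusted p = 0.0903, against 4.08e-05 to 0.0903 over its alternatives). This fit tested 30568 genes, and the cause of the other differences was not tested. With the local-median offset 1135 genes were higher and 1225 lower.

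The replicate numbers did not pair the libraries, since deviations of same-numbered libraries from their group means correlated at 0.0168, 0.00798 and -0.0876. With the replicate number as a block, 4 matrix genes were higher and 10 lower, LTBP4 being added.

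Of the matrix genes that did not pass, some changed direction without 1 library, with ranges of -0.69 to 0.36 for COL4A2, -0.10 to 0.39 for COL16A1, -0.0035 to 0.41 for LAMA3, -0.32 to 0.28 for FN1, -0.16 to 0.075 for ECM1, -0.33 to 0.22 for FBN1 and -0.12 to 0.049 for PLOD3. FN1 (0.21), LOXL3 (0.22) and PLOD3 (0.065) also turned with the local-median offset. Genes with under 30 reads a library, such as COL4A2, COL12A1, LOX and FBLN1, are limited by depth.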
